A study of Mus musculus with 16 samples.

Results

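The genes of Bmp signalling described here are 10 members given by name, namely 3 ligands (Bmp2, Bmp4 and Bmp7), 3 secreted antagonists (Nog, Chrd and Grem1) and 4 Id genes (Id1, Id2, Id3 and Id4). All 10 were found among 26180 gene symbols that have a curated RefSeq transcript on GRCm38. H3K4me3, H3K27me3 and Suz12 had been measured by chromatin immunoprecipitation and sequencing (ChIP-seq) in LIF-ESCs and Myc-ESCs, with the question of whether Myc alters the chromatin of bivalent genes. LIF-ESCs were kept in LIF at 100 units per ml, and Myc-ESCs in 50 nM 4-hydroxytamoxifen (OHT) without LIF. Both were R1 mouse ESCs grown without feeders on gelatin, in serum with vitamin C. Per the study's methods both grew from MycER cells, so the LIF-ESCs carry the transgene too, and OHT switches on its product, a Myc protein fused to the hormone-binding part of the estrogen receptor. The study uses the name MycER for a line with the T58A form of Myc (clone D1) and has a separate clone, A2, as a check. The labels of these libraries name no clone. According to the labels there were 16 libraries, made up of 4 inputs and 2 per culture and antibody, and the authors deposited 1 list of peaks for each culture and antibody. A mark was assigned to a gene if at least 1 bp of a peak fell in the window that reaches 2500 bp from the start site in each direction. The gene body was taken from the first to the last base of its transcripts.

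The lists hold neither read counts nor a value per library, so their depth is unknown, no difference could be set against replicate error, and no test was run. They ranged from 3120 peaks (LIF-ESC H3K27me3) to 32469 (LIF-ESC H3K4me3), and the Myc-ESC H3K27me3 list held 16717. A mark present in fewer cells cannot be told apart from less of the mark in every cell. As a check of the labelled cells, all of Pou5f1, Sox2, Nanog, Esrrb, Klf4 and Zfp42 had H3K4me3 at the start site in both cultures. Esrrb also had 4 H3K27me3 peaks in Myc-ESCs and 0 in LIF-ESCs, with 2 Suz12 peaks in each culture. Klf4 had 5 Suz12 peaks in Myc-ESCs and 0 in LIF-ESCs, and no H3K27me3 in either.

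Bmp ligands are secreted growth factors that bind serine/threonine kinase receptors, which phosphorylate Smad1, Smad5 and Smad9. These enter the nucleus with Smad4 and switch on target genes, among which the Id genes are the best known. Id proteins have a helix-loop-helix domain but no DNA-binding region, and they hold back the bHLH factors that drive differentiation by binding the E proteins those factors need. Noggin, chordin and gremlin bind Bmp ligands outside the cell and keep them from their receptors. In mouse ESCs, Bmp4 acts together with LIF to sustain self-renewal, and Id genes are part of that action. H3K4me3 marks the start sites of active and poised genes, Suz12 is a subunit of the Polycomb complex PRC2, and H3K27me3 is the mark that PRC2 writes. A start site with H3K4me3 and H3K27me3 together is called bivalent.

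PRC2 is known to bind stretches of DNA that are rich in CpG. Promoters of members whose Suz12 or H3K27me3 call differed between the cultures are therefore shown, with each CpG in capitals. RefSeq promoters of GRCm38.p6 were at hand for 6 of the 10 members (Bmp4, Chrd, Grem1, Id2, Id3 and Id4), but not for Bmp2, Bmp7, Nog and Id1. Each line gives the 250 bases before the start site, 5′ to 3′ on the strand of the gene. Bmp4 and Id3 had Suz12 in Myc-ESCs and none in LIF-ESCs, Id2 had the opposite, and Grem1 and Id4 had H3K27me3 near the start in Myc-ESCs but not in LIF-ESCs. These calls are for the whole window. The printed bases of Bmp4, Id2 and Id4 held no Suz12 or H3K27me3 peak. Those of Grem1 (both cultures) and Id3 (Myc-ESCs) overlapped Suz12 peaks but no H3K27me3 peak.
Bmp4, chr14:46390670-46390919, minus strand: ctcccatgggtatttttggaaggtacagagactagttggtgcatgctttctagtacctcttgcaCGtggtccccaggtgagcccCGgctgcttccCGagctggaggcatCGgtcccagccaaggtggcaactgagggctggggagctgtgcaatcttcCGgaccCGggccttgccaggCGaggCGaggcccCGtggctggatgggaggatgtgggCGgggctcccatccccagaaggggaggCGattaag
Id3, chr4:136143572-136143821, plus strand: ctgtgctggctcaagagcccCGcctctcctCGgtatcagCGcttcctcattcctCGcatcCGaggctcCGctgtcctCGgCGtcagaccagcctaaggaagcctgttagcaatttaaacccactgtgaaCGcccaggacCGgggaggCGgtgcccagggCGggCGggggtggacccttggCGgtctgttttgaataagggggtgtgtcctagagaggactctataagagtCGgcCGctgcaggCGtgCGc
Id2, chr12:25096093-25096342, minus strand: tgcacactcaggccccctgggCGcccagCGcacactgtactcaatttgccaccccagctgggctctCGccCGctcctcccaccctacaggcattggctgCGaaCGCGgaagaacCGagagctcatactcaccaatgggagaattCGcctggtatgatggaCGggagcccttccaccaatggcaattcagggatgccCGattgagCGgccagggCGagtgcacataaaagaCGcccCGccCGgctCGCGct
Grem1, chr2:113758649-113758898, minus strand: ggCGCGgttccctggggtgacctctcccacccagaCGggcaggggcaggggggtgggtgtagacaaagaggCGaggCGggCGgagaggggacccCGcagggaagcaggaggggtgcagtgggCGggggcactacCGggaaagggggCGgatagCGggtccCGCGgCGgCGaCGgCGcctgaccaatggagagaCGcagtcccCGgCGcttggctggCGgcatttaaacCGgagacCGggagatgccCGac
Id4, chr13:48260866-48261115, plus strand: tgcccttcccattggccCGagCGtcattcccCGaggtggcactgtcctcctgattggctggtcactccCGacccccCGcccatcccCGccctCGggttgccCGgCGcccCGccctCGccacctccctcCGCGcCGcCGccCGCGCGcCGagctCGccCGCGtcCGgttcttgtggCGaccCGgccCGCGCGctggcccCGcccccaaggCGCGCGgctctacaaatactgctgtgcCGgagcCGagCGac
The CpG content of these promoters differed among the members. Over the whole 300 bases (250 before and 50 after the start site), the ratio of observed to expected CpG was 0.99 for Id4, above that of 93.4% of all 32851 RefSeq promoters, whose median was 0.38. It was 0.80 for Chrd, 0.79 for Grem1, 0.71 for Id2 and 0.70 for Id3. Bmp4 was lowest at 0.42, near the median of all promoters, with 12 CpG against 39 in Id4. The E-box CACGTG, the sequence that Myc binds with Max, was found in 1 of the 6, Bmp4, beginning at base -188, against 7.15% of all promoters. The element GGCGCC, known as a GC-rich site for Bmp-activated Smads, occurred once each in Chrd, Grem1, Id2 and Id4, against 11.9% of all promoters. It consists of C and G alone, and these promoters had 63.3 (Id2) to 78.3% (Chrd) GC, against a median of 52.7% over all promoters. Whether base content accounts for its share was not tested. Both motifs read the same on either strand, they did not overlap, and a match of letters does not show that a factor binds.

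All 10 members had H3K4me3 at the start site in both cultures, which was the case for 61.0% of all genes. The mark was carried by 62.2% of all genes in LIF-ESCs and by 63.3% in Myc-ESCs. In 1 culture alone it was found at no member, against 2.35% of genes for Myc-ESCs and 1.21% for LIF-ESCs. Suz12 lay at the start sites of 7 members in LIF-ESCs, where 12.1% of all genes had it, and of 9 members in Myc-ESCs, where 14.6% had it. H3K27me3 was called at 2 members in LIF-ESCs (Nog and Id3, against 3.82% of all genes) and at 6 in Myc-ESCs (Bmp2, Bmp7, Nog, Grem1, Id3 and Id4, against 10.7%). The Myc-ESC list is much the longer, and with lists of equal length 2 members had H3K27me3 in each culture. With the lists as deposited, the members carried both Polycomb marks in larger shares than genes at large, although they were few and were picked by name. Both cultures shared Suz12 at 6 members (10.8% of all genes) and H3K27me3 at 2 (3.09%). Of the 6 with H3K4me3 and Suz12 in both cultures, 5 had H3K27me3 in Myc-ESCs, against 71.1% of 2595 such genes, and 1 had it in LIF-ESCs, against 26.6%. In Myc-ESCs alone, H3K27me3 lay at 4 members (Bmp2, Bmp7, Grem1 and Id4), against 7.65% of all genes, and Suz12 at 3 (Bmp4, Id1 and Id3), against 3.81%. No member had H3K27me3 in LIF-ESCs alone, and 1 member, Id2, had Suz12 in LIF-ESCs alone, against 0.733 and 1.28% of all genes.

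Over the gene body, H3K4me3 was found at all 10 members in each culture (64.2% of all genes for LIF-ESCs, 65.3% for Myc-ESCs). Suz12 lay over the bodies of the same 7 and 9 members as at the start site, against 12.0 and 14.6%. H3K27me3 lay over 4 bodies in LIF-ESCs (Bmp2, Nog, Grem1 and Id4, against 3.79%) and over 5 in Myc-ESCs (these and Bmp7, against 10.7%). With the lists as deposited, the cultures thus differed by body in 1 gene for H3K27me3, since Bmp2, Grem1 and Id4 had a LIF-ESC peak beyond the window of their start site. With lists of equal length the order turned, with 4 bodies in LIF-ESCs and 1 in Myc-ESCs (Bmp2), and with scores of at least 100 there were 0 and 2.

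**Figure D1:**
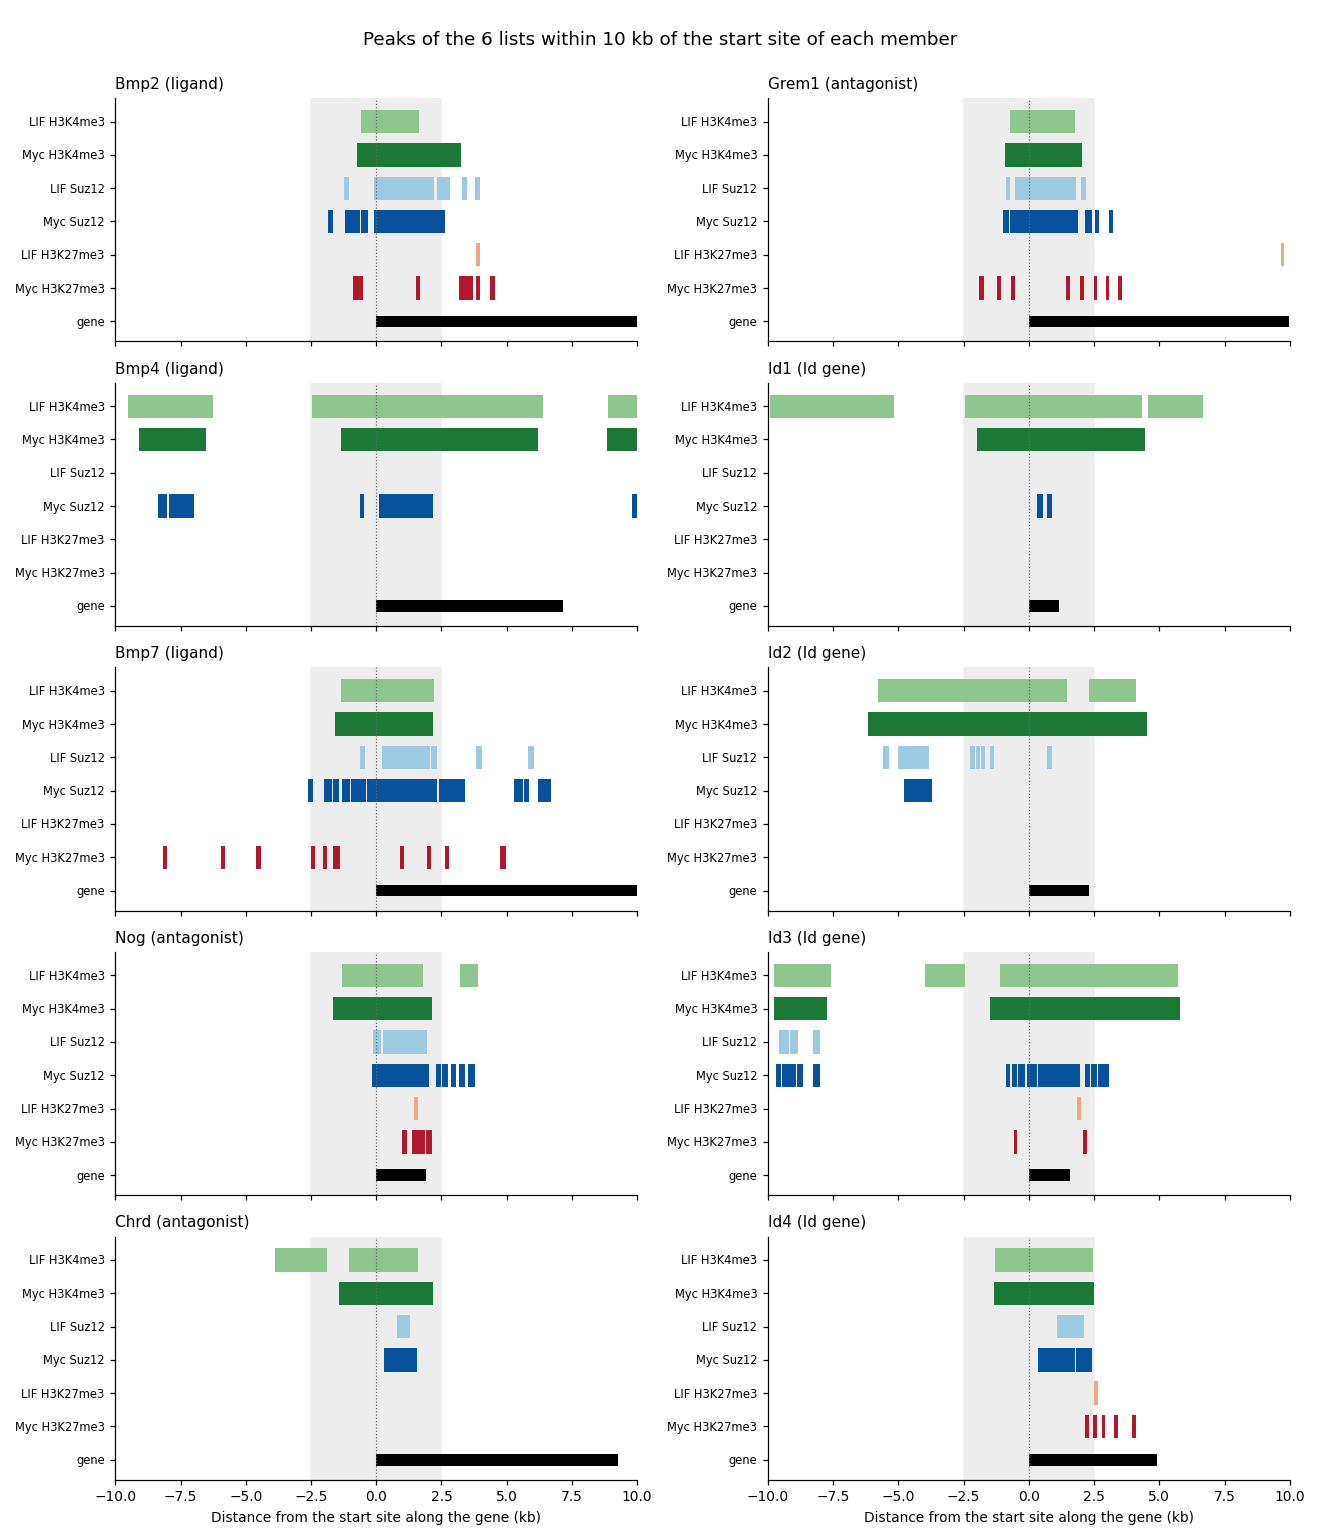
Peaks of the 6 lists within 10 kb of the start site of each member, drawn along the gene (kb, negative values upstream). Each coloured bar is 1 peak of the list named on the left, the black bar is the gene, cut off at 10 kb, and the grey band is the window around the start site. H3K4me3 bars cover all 10 start sites, the Suz12 rows of Bmp4, Id1 and Id3 are empty inside the grey band for LIF-ESCs, and H3K27me3 bars are short and leave the start site itself free.

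Bmp2, a ligand of bone, heart and germ line development, had a peak of 5 of the 6 lists at its start site, all but LIF-ESC H3K27me3. The gene (ID 12156) has 3 exons and occupies 133552159 to 133562896 of chromosome 2, plus strand. Its H3K4me3 peak ran from -583 to 1650 bp in LIF-ESCs and from -729 to 3241 bp in Myc-ESCs, positions being counted from the start site, with negative numbers upstream. Within the 5001 bp window this made 2234 and 3230 bases. The wider Myc-ESC peak took in exon 2, which the LIF-ESC peak did not reach. Within the window, Suz12 peaks covered 2638 bases in LIF-ESCs against 3636 in Myc-ESCs. In each culture the longest Suz12 peak lay across the start site, exon 1 and intron 1. Over the gene body Suz12 went the other way, with 3065 bases in LIF-ESCs and 2644 in Myc-ESCs. LIF-ESC Suz12 peaks at 3305 to 3495 and at 3802 to 3975 bp, in intron 2, had no Myc-ESC counterpart. H3K27me3 had no LIF-ESC peak at the start site. In Myc-ESCs it had 3 of them, of 158 to 184 bp, both upstream of Suz12's longest peak and in intron 1, with 514 bases in all. In intron 2, beyond the window, a LIF-ESC H3K27me3 peak lay at 3810 to 3984 bp, and a Myc-ESC peak overlapped it at 3842 to 3988 bp. Intron 2 held 3 further Myc-ESC peaks, the strongest with a score of 175, so H3K27me3 over the body came to 175 bases in LIF-ESCs and 993 in Myc-ESCs.

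Bmp4, the ligand that sustains ESCs with LIF, had no H3K27me3 in either culture and Suz12 in Myc-ESCs alone. Bmp4 (ID 12159) occupies 46383525 to 46390669 of chromosome 14, minus strand, with 4 exons. H3K4me3 covered 4962 of the 5001 bases in LIF-ESCs and 3838 in Myc-ESCs. The upstream edge of the peak lay at -2461 bp in LIF-ESCs and at -1337 bp in Myc-ESCs, while its downstream edge was nearly the same (6387 and 6183 bp, in the last exon). Bmp4 was thereby 1 of 2 members, with Id1, whose start site had fewer H3K4me3 bases in Myc-ESCs, against 32.4% of all genes called in either culture. No LIF-ESC Suz12 peak came nearer than 490869 bp. In Myc-ESCs, a Suz12 peak of 2090 bp with a score of 1668 ran from 94 to 2183 bp over exon 1 and intron 1, and a short one of 175 bp lay upstream. The longer peak had a score that equalled or exceeded that of 92.6% of the Myc-ESC Suz12 list. The score, which the peak caller derives from the p-value of a peak on a log scale, starts at 50 and can be compared within a list. A second H3K4me3 region upstream, from -9499 to -6248 bp in LIF-ESCs and from -9099 to -6535 bp in Myc-ESCs, also had Suz12 in Myc-ESCs and not in LIF-ESCs. Its Suz12 peaks measured 958 and 312 bp. The nearest Myc-ESC H3K27me3 peak was 439871 bp away, and the nearest LIF-ESC one 633744 bp.

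Bmp7, a ligand of kidney and eye development, showed the widest Suz12 cover of the 10 in Myc-ESCs. The gene (ID 12162) spans 72310 bp on the minus strand of chromosome 2, from 172868012 to 172940321, with 7 exons. At the start site, H3K4me3 had 3579 bases in LIF-ESCs and 3773 in Myc-ESCs. Suz12 covered 2269 bases in 3 peaks in LIF-ESCs and 4312 in 7 peaks in Myc-ESCs, or 45.4 and 86.2% of the window. The longest LIF-ESC peak began 206 bp into the gene, whereas the longest in Myc-ESCs ran from -366 to 2345 bp across the start site. H3K27me3 had no peak in LIF-ESCs nearer than 209831 bp. Myc-ESCs had 5 peaks at the start site with 873 bases in the window, the strongest of which (score 142) lay upstream at -1664 to -1371 bp. Outside the window, 3 more lay upstream as far as -8156 bp and 2 in intron 1. Deeper in the gene, a LIF-ESC H3K4me3 peak of 2592 bp lay over intron 6 and exon 7, and a weak Myc-ESC one (score 53.6) in intron 2.

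Among the antagonists, Suz12 was present in both cultures at all 3. Nog, which encodes noggin in a single exon, was the 1 member with a peak of all 6 lists at its start site, a pattern found at 621 genes (2.37%). Nog (ID 18121) occupies 89300638 to 89302559 of chromosome 11, minus strand. H3K4me3 had 3103 bases near the start in LIF-ESCs and 3815 in Myc-ESCs. Suz12 had 2035 and 2347, and its longest peak measured 1721 bp against 2174 bp, and Suz12 covered 97.7 and 100.0% of the gene body. For H3K27me3 the cultures lay further apart. A single LIF-ESC peak of 153 bp (score 57.6) stood against 5 Myc-ESC peaks with 920 bases, the most of any member. These 5 lay between 995 and 2138 bp, with 703 of the 920 bases in the 3′ part of the exon and the remainder downstream of the gene, and the LIF-ESC peak lay within the same stretch.

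Chrd, which encodes chordin, had Suz12 but no H3K27me3. Chrd (ID 12667) occupies 20733127 to 20742384 of chromosome 16, plus strand, with 23 exons. H3K4me3 had 3307 bases at the start site in LIF-ESCs, in 2 peaks, and 3572 in Myc-ESCs, in 1. Suz12 had a single peak in each culture, from 795 to 1284 bp in LIF-ESCs and from 283 to 1575 bp in Myc-ESCs. The Myc-ESC peak (1293 bp) thus enclosed the LIF-ESC peak (490 bp) and extended over exons 2 to 6. Its H3K27me3 lists were empty for a long way, the nearest Myc-ESC peak being 140918 bp and the nearest LIF-ESC peak 9665557 bp off.

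Grem1, which encodes gremlin, had the most H3K27me3 peaks of all members at its start site. It (ID 23892) has 2 exons and occupies 113748675 to 113758648 of chromosome 2, minus strand. H3K4me3 had 2494 bases in LIF-ESCs against 2935 in Myc-ESCs, and Suz12 2707 against 3089. The main Suz12 peak was much alike, from -539 to 1796 bp in LIF-ESCs and from -710 to 1886 bp in Myc-ESCs. At the start site, H3K27me3 had 0 peaks in LIF-ESCs but 6 in Myc-ESCs, covering 824 bases. All 6 had scores under 100, from 54.4 to 87.6. They lay on both sides of the start site, 3 upstream and 3 in intron 1, and the nearest ended 535 bp upstream. A LIF-ESC peak of 143 bp in exon 2, 9655 bp into the gene, had a score of 50.0, the least that the list holds. The sequences under these peaks are shown because they differ from the promoter in CpG. The promoter line of Grem1 above holds 24 CpG in 250 bases, whereas the 6 peaks, of 123 to 204 bases, held between 0 and 5. The peaks nearest the start site on each side follow, on the strand of the gene, with each CpG in capitals.
Grem1 upstream, chr2:113759183-113759327: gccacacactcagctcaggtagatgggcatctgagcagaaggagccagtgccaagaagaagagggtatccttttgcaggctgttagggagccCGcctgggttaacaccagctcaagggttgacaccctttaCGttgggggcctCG
Grem1 intron 1, chr2:113757051-113757229: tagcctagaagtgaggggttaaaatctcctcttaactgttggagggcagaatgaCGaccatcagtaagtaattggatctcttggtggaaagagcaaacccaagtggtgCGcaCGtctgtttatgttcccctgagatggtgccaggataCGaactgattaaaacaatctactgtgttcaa
These peaks had an observed to expected CpG ratio of 0.26 and 0.46, against 0.79 for the whole promoter. Over all 6 peaks the ratio ran from 0 to 0.55. Peaks of genes outside the members were not compared in this way.

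The Id genes did not share a single pattern. Id1 (ID 15901), at 152736251 to 152737410 of chromosome 2, plus strand, is often used as a readout of Bmp signalling. H3K4me3 extended over its full length in either culture. At the start site it had 4946 bases in LIF-ESCs and 4478 in Myc-ESCs, the upstream edge lying at -2445 and at -1977 bp. A second LIF-ESC H3K4me3 peak of 4742 bp, from -9914 to -5173 bp, had no counterpart in Myc-ESCs within 10 kb. Downstream of the gene, a weaker LIF-ESC peak of 2080 bp (score 191), from 4583 to 6662 bp, had none either. Suz12 was absent in LIF-ESCs, the nearest peak lying 108029 bp away. In Myc-ESCs, 2 short peaks of 212 and 172 bp lay over the exons and the intron, with 384 bases in all. Their scores of 70.3 and 60.7 equalled or exceeded those of 34.9 and 21.6% of that list, and with scores of at least 100 alone Id1 had no Suz12. No H3K27me3 peak lay within 100 kb of Id1 in either culture, the nearest being 100980 bp away in Myc-ESCs.

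Id2 went against the other members in Suz12. Id2 (ID 15902) occupies 25093799 to 25096092 of chromosome 12, minus strand, with 3 exons. In LIF-ESCs, 5 Suz12 peaks with 905 bases lay in the window, all of them weak (scores from 56.1 to 67.4), and in Myc-ESCs there was none. A stronger Suz12 region further upstream was called in both, from -5010 to -3817 bp in LIF-ESCs and from -4799 to -3717 bp in Myc-ESCs. The scores of these peaks, 977 and 417, equalled or exceeded those of 92.6 and 81.1% of their own lists. Scores of different lists cannot be set against each other. With a 5000 bp window Id2 thus had Suz12 in both cultures. H3K4me3 was broader in Myc-ESCs, where 1 peak of 10709 bp covered the whole window, than in LIF-ESCs, where peaks of 7265 and 1785 bp left a gap from 1475 to 2306 bp, towards the 3′ end of the gene. The Myc-ESC peak was at least as long as 99.7% of its list. H3K27me3 came no nearer than 735464 bp, and the pattern of 3 lists that Id2 had was found at 219 genes (0.837%).

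Id3 had the largest difference in Suz12 of the Id genes. Id3 (ID 15903) occupies 136143822 to 136145392 of chromosome 4, plus strand, with 3 exons. No LIF-ESC Suz12 peak lay nearer than 7987 bp. In Myc-ESCs there were 9 in the window with 2867 bases, and they covered 97.8% of the gene body. The strongest, with a score of 698, ran from 339 to 1222 bp, and 1 of the 9 lay across the start site itself. Upstream, between -9699 and -7987 bp, Suz12 was called in both cultures. H3K4me3 covered the gene fully in either culture, with 3655 bases near the start in LIF-ESCs and 3972 in Myc-ESCs. H3K27me3 had 1 short LIF-ESC peak downstream of the gene (1847 to 2018 bp, 172 bases) and 2 Myc-ESC peaks, upstream and downstream (294 bases). The downstream Myc-ESC peak (2074 to 2237 bp) did not overlap the LIF-ESC one. Id3 thus had H3K27me3 without Suz12 in LIF-ESCs and both in Myc-ESCs, a pattern found at 39 genes (0.149%). The upstream H3K27me3 peak is shown since it lies just upstream of the promoter printed above and had no LIF-ESC counterpart.
Id3 upstream, chr4:136143252-136143381: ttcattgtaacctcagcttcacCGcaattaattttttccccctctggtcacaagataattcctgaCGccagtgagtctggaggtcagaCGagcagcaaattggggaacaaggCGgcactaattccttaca
It held 4 CpG in 130 bases, against 18 in the 250 bases of the promoter. The observed to expected CpG ratio, which allows for length and base content, was closer, at 0.57 for the peak and 0.7 for the whole promoter.

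Id4, known for its part in neural and mammary development, had a peak of the same 5 lists as Bmp2, Bmp7 and Grem1, a pattern found at 1224 genes (4.68%). Id4 (ID 15904) occupies 48261116 to 48266028 of chromosome 13, plus strand, with 3 exons. H3K4me3 was almost identical, from -1298 to 2456 bp in LIF-ESCs and from -1330 to 2501 bp in Myc-ESCs. Suz12 had 1 peak of 1006 bp in LIF-ESCs and 3 with 1985 bases in Myc-ESCs, none of them over the start site. H3K27me3 began at 2512 bp in LIF-ESCs, just outside the window, but at 2165 bp in Myc-ESCs, so the difference at the start site rests on where the window ends. The Myc-ESC peak from 2455 to 2601 bp overlapped the LIF-ESC peak. Over the gene body, all in exon 3, the LIF-ESC list had 1 peak of 153 bp and the Myc-ESC list 5 with 711 bases.

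**Figure D2:**
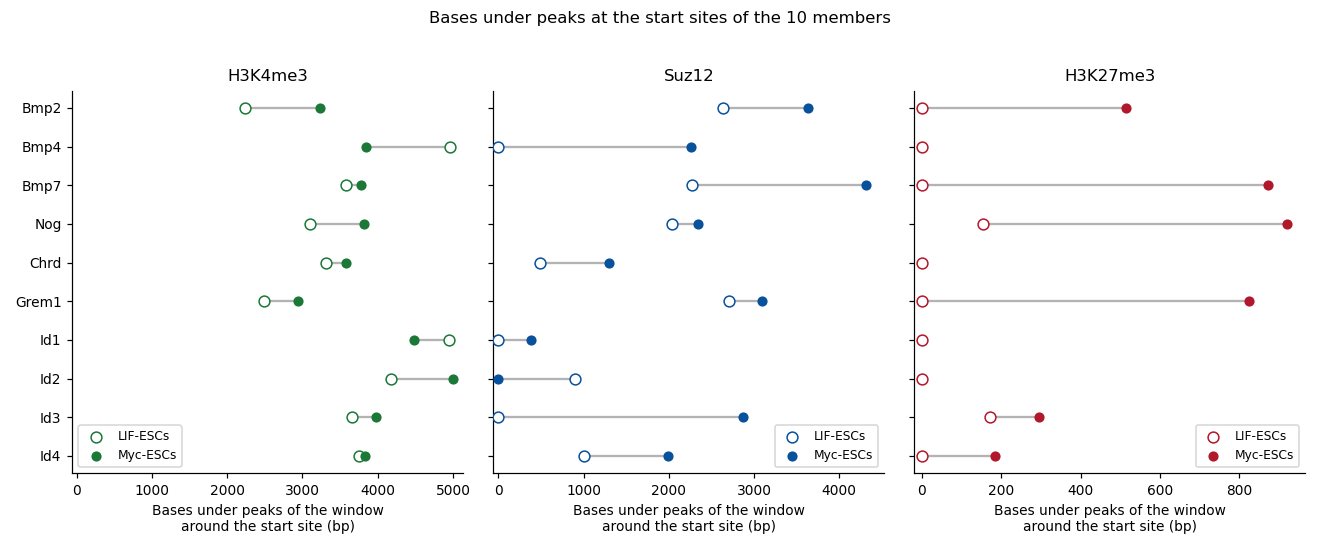
Bases under peaks (bp) among the 5001 around the start site of each member, for H3K4me3, Suz12 and H3K27me3. Open circles are LIF-ESCs, filled circles are Myc-ESCs, each is 1 peak list without replicates, and the grey line joins the cultures. Suz12 cover was higher in Myc-ESCs at 9 members and lower at Id2, and H3K27me3 cover was higher at 6 and 0 in both at Bmp4, Chrd, Id1 and Id2.

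Taking the members as a group, Suz12 peaks at the start site covered more bases in Myc-ESCs at 9 of 10. This was so at 79.3% of the 4154 genes with Suz12 there in either culture. Fewer bases were covered at 1 member, against 20.2% of those genes. The median over the members was 956 bases in LIF-ESCs against 2306 in Myc-ESCs, and over all those genes 548 and 1204. H3K4me3 cover was higher in Myc-ESCs at 8 of 10 members, against 65.1% of genes, with a median difference of 291 bases over the members and 150 over all. With the 1000 bp window it was higher at 2 members, against 30.9% of genes, and equal at the other 8. For H3K27me3, all 6 members with a peak had more bases in Myc-ESCs, as had 90.6% of such genes, and none had fewer, against 9.32%. These counts are therefore near those of genes at large. With lists of equal length, Suz12 cover was still higher in Myc-ESCs at 9 members, against 76.1% of genes, and lower at 1, against 23.5%. H3K27me3 cover was then higher at 2 members, against 60.2% of genes, and lower at 2, against 39.8%.

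For H3K27me3, the difference between the cultures depended on the length of the lists. When the 16717 peaks of Myc-ESCs were limited to the 3120 with the highest scores, 2 members had H3K27me3 in each culture, Bmp2 and Bmp7 in Myc-ESCs and Nog and Id3 in LIF-ESCs. The shares of all genes were then 3.53% in Myc-ESCs and 3.82% in LIF-ESCs. With scores of at least 100 alone, the mark lay at 3 members in Myc-ESCs (Bmp2, Bmp7 and Nog, against 3.73% of all genes) and at none in LIF-ESCs (0.458%). This cut-off kept 3378 of the 16717 Myc-ESC peaks and 339 of the 3120 LIF-ESC peaks. Since the score grows with depth, which is unknown, it may not be equally strict in both cultures. H3K4me3 stayed at all 10 members with either choice (59.8 and 61.2% of all genes at the higher score, 61.6 and 63.3% with equal lists). Suz12 was less sensitive than H3K27me3. With the lists at 11305 peaks each, the same 7 members in LIF-ESCs and 9 in Myc-ESCs carried it, against 12.1 and 13.6% of all genes. Scores of at least 100 left 6 and 8, without Id2 and Id1, against 8.25 and 11.3%. Bmp4 and Id3 had Suz12 in Myc-ESCs and not in LIF-ESCs under each of the 5 alternatives.

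**Figure D3:**
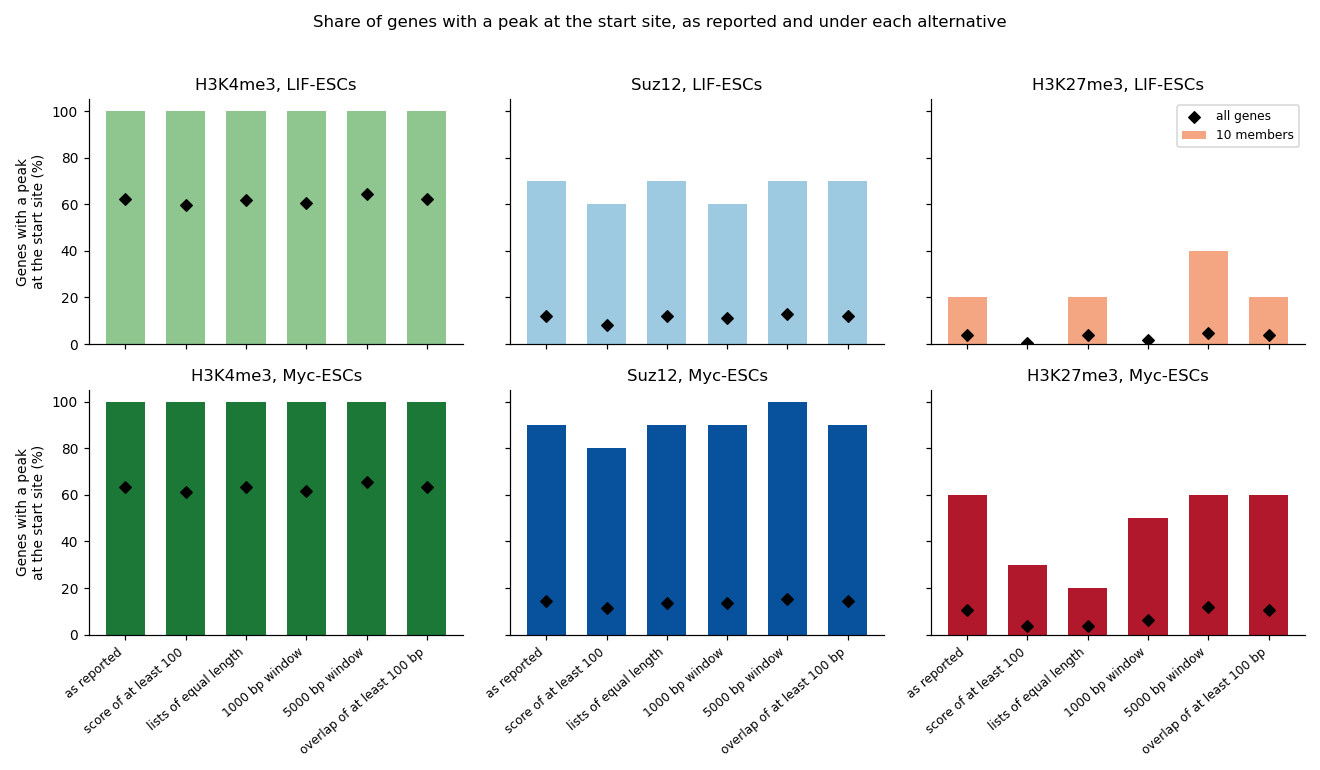
Genes with a peak at the start site (%), in LIF-ESCs (upper row) and Myc-ESCs (lower row), as reported and under 5 alternatives. Bars are the 10 members and black diamonds all 26180 genes. The members lie above all genes in each panel except for H3K27me3 in LIF-ESCs with scores of at least 100 or a 1000 bp window, where no member is left, and the Myc-ESC H3K27me3 bar falls from 6 to 2 members with lists of equal length.

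H3K4me3 lay across the start site of all 10 members in both cultures, as at 95.0 and 95.2% of genes with the mark. Suz12 covered the start site itself at 3 of 7 members in LIF-ESCs and 5 of 9 in Myc-ESCs, against 39.5 and 48.9% of genes with Suz12. An H3K27me3 peak covered it at none of the 2 and 6 members that had one, against 2.60 and 3.84% of genes with the mark. The 23 Myc-ESC H3K27me3 peaks at the members' start sites measured 123 to 294 bp, and 3 had a score of at least 100. Of the 23, 19 (82.6%) overlapped a Myc-ESC Suz12 peak and 18 (78.3%) an H3K4me3 peak. Among 6970 such peaks at the start sites of all genes, the shares were 62.7 and 60.3%. These sets are unlike. All 6 members also had Suz12 and H3K4me3 at the start site in Myc-ESCs, whereas the 6970 include peaks of genes without Suz12, such as the antagonist gene Bambi. The members' peaks that missed Suz12 belonged to Grem1 (3) and Id4 (1).

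The rest of the pathway was read from a list of 45 genes, grouped by role. H3K4me3 was found at 38 of them (84.4%) in LIF-ESCs and 40 (88.9%) in Myc-ESCs, against 62.2 and 63.3% of all genes. Suz12 lay at 20 (44.4%) and 21 (46.7%), against 12.1 and 14.6%. H3K27me3 lay at 3 (6.67%) and 13 (28.9%), against 3.82 and 10.7%. In Myc-ESCs alone, H3K27me3 lay at 10 (22.2%, against 7.65% of all genes), and no gene had it in LIF-ESCs alone. The Myc-ESC H3K27me3 list is much the longer, and these 45 genes were not recounted with lists of equal length. Their differences in H3K27me3 between the cultures are therefore given for the lists as deposited only. By role, these were 4 of 11 further ligands (Bmp3, Bmp8a, Gdf6 and Gdf7) and 3 of 13 further antagonists (Fst, Bmper and Bambi). Another antagonist gene, Chrdl2, had the mark in both cultures, with 151 bases in LIF-ESCs against 1257 in Myc-ESCs. Gdf6, a ligand of joint and skull development, had the most bases among the ligands, with 909 in 6 peaks. Bmper, an extracellular modulator of Bmp ligands, had 866 in 4 peaks. Fst encodes follistatin, which binds activins and some Bmp ligands, and had 638 bases. None of the 7 receptors had H3K27me3 in either culture. Of the 6 Smads, Smad9 alone had it, with 143 bases in Myc-ESCs, and none of the 3 E protein genes had it. With 3.82 and 10.7% of all genes carrying the mark, groups this small cannot show that a role lacks it. Among the 5 other known targets, Gata3 and Hey1 had it in Myc-ESCs alone, and Msx1 and Msx2, homeobox genes of limb and neural crest, had it in both. Msx1 had 331 bases in LIF-ESCs against 1009 in Myc-ESCs, and Msx2 had 158 against 1343. For Suz12, Bmp8a and the receptor gene Acvrl1 had peaks in Myc-ESCs alone (4.44% of the 45, near the 3.81% of all genes). Only Tcf12, which encodes an E protein, had them in LIF-ESCs alone, against 1.28% of all genes.

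**Figure D4:**
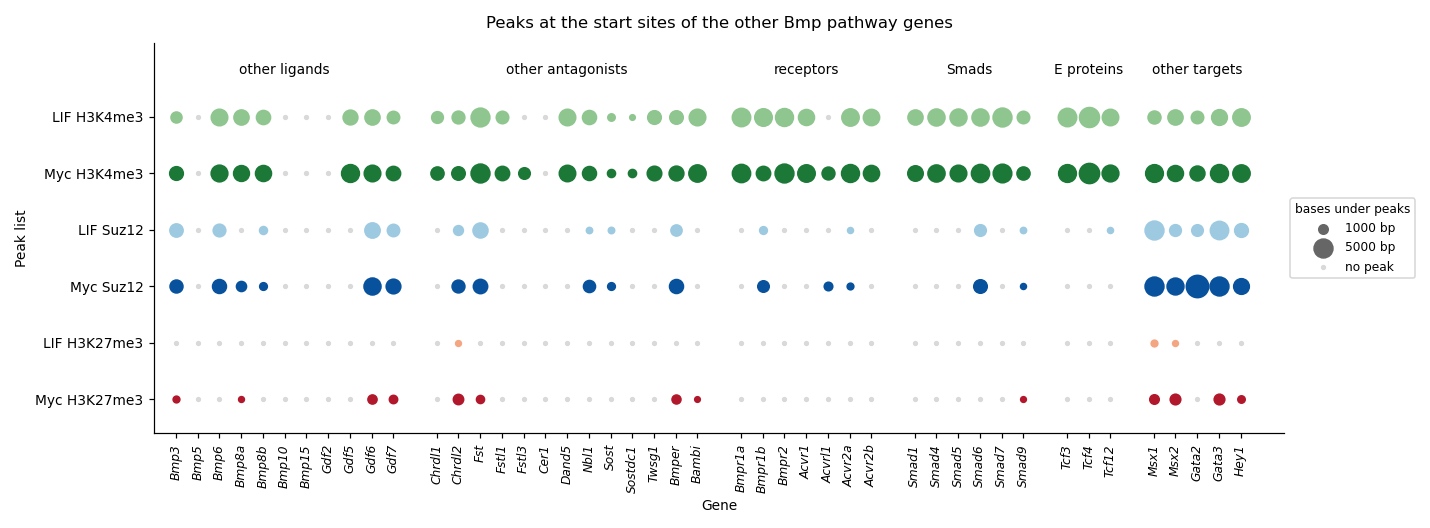
Peaks at the start sites of 45 other Bmp pathway genes (columns, by role) in the 6 lists (rows). The area of a coloured dot grows with the bases under peaks (bp) at the start sites of the gene, and a small grey dot means no peak. The H3K27me3 rows hold 3 dots in LIF-ESCs and 13 in Myc-ESCs, where the list is much the longer, and none of them is at a receptor.

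A wider list of the study, made from gene ontology for TGF-beta and Bmp signalling, was counted in the same way. Of its 102 names 101 matched a gene symbol, and 7 members are in it. H3K27me3 lay at 14 of the 101 genes (13.9%) in LIF-ESCs, against 41 (40.6%) in Myc-ESCs, where the list is much the longer, and the shares of all genes were 3.82 and 10.7%. Suz12 lay at 52 (51.5%) and 59 (58.4%), against 12.1 and 14.6% of all genes. In Myc-ESCs alone, 27 genes (26.7%) had H3K27me3 and 9 (8.91%) Suz12, against 7.65 and 3.81%. Over the 6 lists, the gene most like each member with H3K27me3 in bases covered at the start site (least Euclidean distance, over 10 kb away) was Fstl4 for Grem1, at a distance of 202 bases. It was Epha5 for Bmp2, Megf11 for Id4, Cacna2d3 for Bmp7, Usp3 for Id3 and Nr3c2 for Nog, at distances from 262 to 530 bases.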

How the data were processed

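ChIP-seq of H3K4me3, H3K27me3 and Suz12 was carried out in LIF-ESCs and Myc-ESCs. Reads from a HiSeq2000 were mapped to GRCm38 by the authors with Bowtie2 2.2.3, who kept unique best matches and called peaks over background with MACS 1.4.2 at default parameters. They deposited 6 peak lists with a position and a score for each peak. The deposited score is a p-value on a log scale, starts at 50, grows with depth and served here for ranking and filtering inside each list. Pooling of libraries before calling is not given in the sources used here.

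Peaks were read with Python 3.11.15, numpy 2.4.6 and pandas 2.3.3. They were checked to lie within the 21 chromosomes of GRCm38 without overlap in a list. Start sites came from 45756 curated RefSeq transcripts. Interval code, tested on simulated data, gave 0 differing calls in 1000 windows. The members, pathway lists and alternatives were chosen with earlier results of these data known. All members are named, along with listed genes whose Suz12 or H3K27me3 call differs between cultures, and the gene nearest in covered bases to each member with H3K27me3. As alternatives, scores had to reach 100, lists were limited to equal length, windows reached 1000 or 5000 bp, or overlaps had to reach 100 bp. Sequences are from RefSeq GRCm38.p6 and coordinates count from 1. Gene expression was not analysed here, and 1 gene of the pathway list is not reported here.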

Additional observations from a re-analysis of the deposited data

How the results depend on the processing

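Of 72 values under the alternatives, 57 stayed within 1.5 times the reported count of members and 15 did not. With scores of at least 100, H3K27me3 lay at the start sites of 0 members (LIF-ESCs) and 3 members (Myc-ESCs), over 0 and 2 gene bodies, 3 members had more H3K27me3 bases in Myc-ESCs, and 0 had fewer Suz12 bases. With lists of equal length, H3K27me3 in Myc-ESCs lay at 2 start sites and over 1 gene body (4 bodies in LIF-ESCs), and 2 members had more and 2 fewer bases there than in LIF-ESCs. With the 1000 bp window, H3K27me3 lay at 0 members in LIF-ESCs, and 2 members had more and 0 fewer H3K4me3 bases in Myc-ESCs, the other 8 being covered equally in both. With the 5000 bp window, H3K27me3 lay at 4 members in LIF-ESCs, and 4 had fewer H3K4me3 bases in Myc-ESCs. The cause was not tested, other than that a stricter score or a shorter list leaves fewer peaks and a narrower window fewer bases. No replicate could be left out and no paired analysis was possible because each group has 1 peak list and no values per library. Depth is unknown, so a region without a peak may hold signal that was not called.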
